A study of Mus musculus with 2 samples.

Results

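The Mir26 genes are a family of 3 microRNA genes, Mir26a-1, Mir26a-2 and Mir26b, each inside a gene for a small phosphatase of the Ctdsp family. They were taken by their symbols in GENCODE annotation M21 and make up 3 of the 2202 microRNA genes counted in the left cerebral cortex of mice. Small RNAs of under 30 bases were sequenced from female pups aged 4 days of the strain B6CASTF1/J, a first-generation hybrid between a C57BL/6 and a castaneus parent. The study has 1 group of 2 libraries, from animals with numbers of their own but a common donor record in the labels. No condition was compared, so no test between groups exists, and values are given for each library and as mean ± SD with n = 2. Nothing in the labels separates the spread between animals from that of dissection and library preparation.

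A microRNA gene is transcribed as a longer RNA that folds into a hairpin, and both arms of the hairpin can yield a mature microRNA of about the length of a small RNA read. The mature strand pairs with messenger RNAs mainly through its seed, here bases 2 to 8 from the 5′ end, and lowers their output. The Ctdsp proteins remove phosphate from the tail of RNA polymerase II and serve as partners of the repressor REST, which keeps neuronal genes silent outside neurons. In zebrafish, miR-26b is known to repress the messenger RNA of its own host gene ctdsp2 while neurons form. The host messenger RNAs were not measured in these small RNA libraries.

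All 3 members have an entry in RefSeq (build GRCm38.p6), with hairpins of the same coordinates and bases as in GENCODE. Their mature arms are shown because shared seeds define the family and shared bases decide which reads can be told apart. Capitals mark the seed.
miR-26a-5p (Mir26a-1 and Mir26a-2): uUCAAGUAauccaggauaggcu
miR-26b-5p (Mir26b): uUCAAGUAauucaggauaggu
miR-26a-1-3p (Mir26a-1): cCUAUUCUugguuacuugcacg
miR-26a-2-3p (Mir26a-2): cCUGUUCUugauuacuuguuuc
miR-26b-3p (Mir26b): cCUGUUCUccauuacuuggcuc

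The 5p arm is identical in Mir26a-1 and Mir26a-2. Counted from 1 at the 5′ end, miR-26b-5p differs from it by C11U and C21U and is 21 instead of 22 bases long, so that 19 of 21 compared bases are the same. The seed of the 5p arms was found in no other gene of the RefSeq microRNA table. The 3p arms differ more. Between miR-26a-1-3p and miR-26a-2-3p there are 6 differences (A4G, G11A, C19U, A20U, C21U and G22C), of which A4G lies in the seed. The 3p arms of Mir26a-2 and Mir26b have the same seed and differ by U9C, G10C, U19G and U20C. That seed also occurs in the 3p arms of Mir6932 and Mir7039, which had 3 and 3 counts in replicate 1 and 4 and 9 counts in replicate 2. The seed of miR-26a-1-3p was found in no other gene of that table.

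The hairpins carry the bases that separate the copies, and capitals mark both mature arms in them. Mir26a-1 lies at chr9:119031796-119031885, Mir26a-2 at chr10:126995530-126995613 and Mir26b at chr1:74394310-74394394, all on the plus strand of mm10.
Mir26a-1: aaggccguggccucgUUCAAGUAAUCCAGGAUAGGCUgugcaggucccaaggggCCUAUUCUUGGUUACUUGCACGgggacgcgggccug
Mir26a-2: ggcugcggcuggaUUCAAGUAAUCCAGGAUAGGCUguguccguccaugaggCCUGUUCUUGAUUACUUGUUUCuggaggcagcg
Mir26b: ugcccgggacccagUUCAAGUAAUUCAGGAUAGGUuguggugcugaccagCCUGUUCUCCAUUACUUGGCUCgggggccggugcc

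The longest stretch that both Mir26a hairpins share is uucaaguaauccaggauaggcugug, with 25 bases. It holds the whole 5p arm of 22 bases and the next 3 bases. A read that lies within it has the same letters at both genes, and reads mapped to several places were kept by the authors in a separate total that belongs to no gene. That total was 5352140 reads (45.8% of all reads) in replicate 1 and 4070537 (41.0%) in replicate 2, and the files do not say which microRNAs it holds. The counts of Mir26a-1 and Mir26a-2 are thus counts of reads that could be placed at 1 copy, and they are not the amount of miR-26a-5p. Mir26b shares at most 11 bases with Mir26a-1 and 10 with Mir26a-2.

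Cut into windows of 22 bases, Mir26a-1 had 4 of 69 windows and Mir26a-2 had 4 of 63 windows that also occur in the other copy. None of the 64 windows of Mir26b occurs in another microRNA hairpin. The shared windows begin at the first bases of the 5p arm, while every window over the 3p arms is found in 1 hairpin. Among 141767 annotated transcripts, miR-26a-5p occurs on the sense strand in Mir26a-1 and Mir26a-2 alone, and each of the other 4 arms in its own gene alone. The counts add up both arms of a hairpin, so the share of each arm is unknown.

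**Figure D1:**
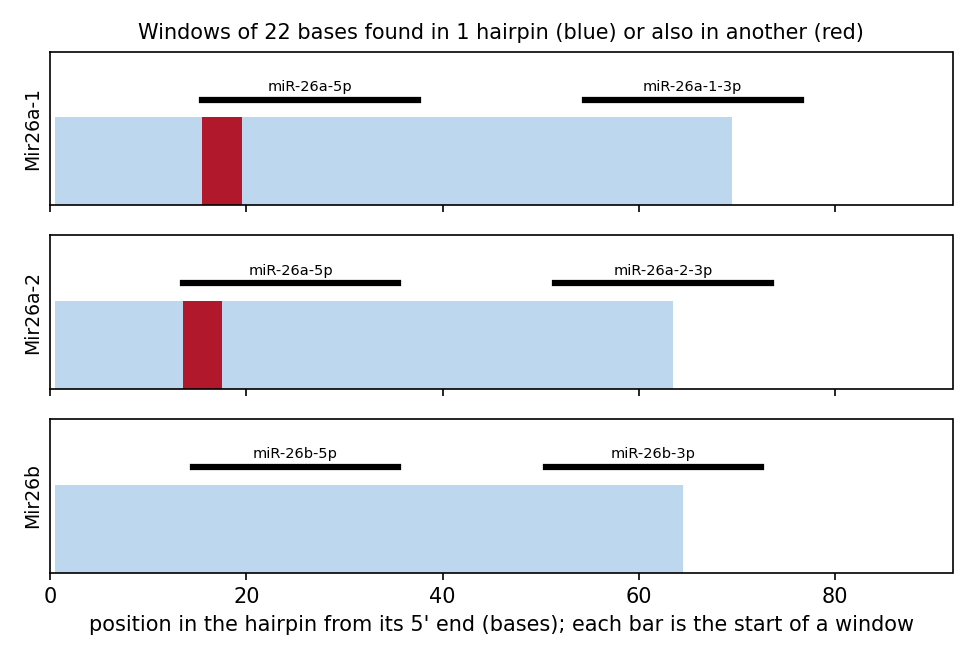
Start positions of all windows of 22 bases along each hairpin (x axis, bases from the 5′ end), blue where the window is found in 1 microRNA hairpin and red where it is also found in another. Black bars are the mature arms. The 4 red windows of Mir26a-1 and of Mir26a-2 lie at the start of miR-26a-5p, and Mir26b has none.

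The members sit at matching places in their host genes. Mir26a-1 (ENSMUSG00000065513.1) lies in intron 5 of Ctdspl, Mir26a-2 (ENSMUSG00000065430.1) in intron 5 of Ctdsp2 and Mir26b (ENSMUSG00000065468.1) in intron 4 of Ctdsp1. Introns are numbered in the coding transcript with most exons, and each microRNA is on the strand of its host. In all 3 hosts the exon before that intron is 57 bases long, the exon after it 93 bases and the next one 186 bases. The introns themselves differ in length, with 3283 bases in Ctdspl, 1946 in Ctdsp2 and 564 in Ctdsp1. The hairpin of Mir26a-1 is 1543 bases past the exon before it and 1650 bases ahead of the next exon. For Mir26a-2 these distances are 1621 and 241 bases, and for Mir26b 234 and 245 bases.

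Only the Mir26a-2 hairpin touches a host exon in the annotation, since a shorter Ctdsp2 transcript begins at position 126995613, the last base of the hairpin. Mir26a-2 is also the only member with another microRNA gene within 10 kb. That neighbour, Mir546, lies 2827 bases away and had 5 counts in replicate 1 and 2 in replicate 2. No microRNA gene overlaps a member, and none of the members had a read on the opposite strand.

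**Figure D2:**
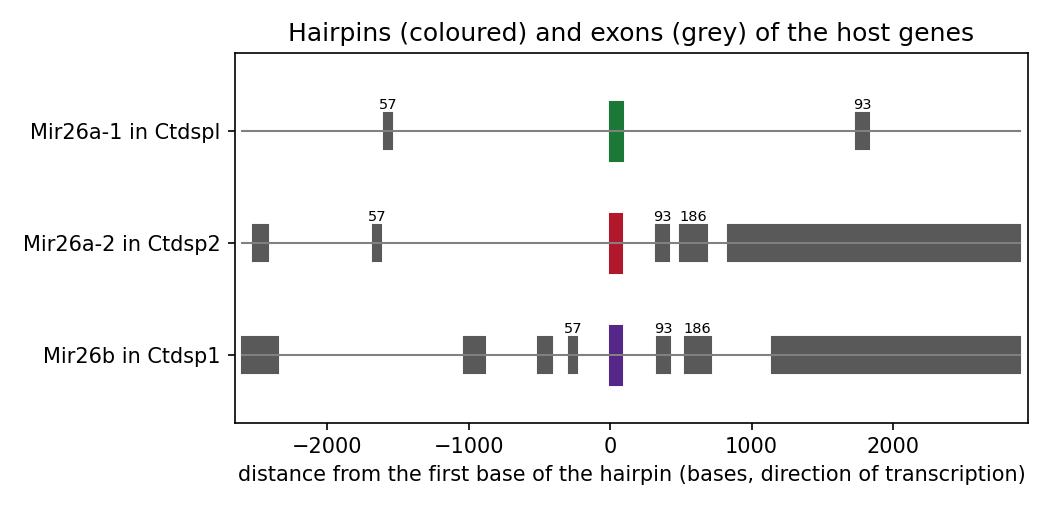
Hairpins (coloured) and exons (grey) of the host genes, by distance in bases from the first base of each hairpin in the direction of transcription. Numbers are exon lengths. In each host the hairpin follows an exon of 57 bases and precedes one of 93 bases.

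Mir26b was the main counted member of the family. It had 19621 counts in replicate 1 and 10721 in replicate 2. CPM here are counts divided by the microRNA total of the library and scaled up. On that scale Mir26b stood at 5519 (95% Wilson interval 5442 to 5596) and 3883 (3810 to 3957), or 4701 ± 1157 (SD, n = 2). By counts, Mir26b ranked 39 of 2202 genes in replicate 1 and 51 in replicate 2. It held 95.4% of the counts of the 3 genes in replicate 1 and 99.6% in replicate 2.

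Mir26a-2 was high in replicate 1 and low in replicate 2. It had 912 counts, or 257 CPM (240 to 274), in replicate 1 and 33 counts, or 12.0 CPM (8.51 to 16.8), in replicate 2. The mean of 134 CPM had an SD of 173, larger than the mean itself. Its rank among all genes was 175 in replicate 1 and 323 in replicate 2. It held 4.44% (4.16 to 4.73) of the counts of the 3 genes in replicate 1 and 0.307% (0.218 to 0.430) in replicate 2.

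Mir26a-1 was low in both libraries. It had 27 counts, or 7.59 CPM (5.22 to 11.0), in replicate 1 and 11 counts, or 3.98 CPM (2.22 to 7.13), in replicate 2, with a mean of 5.79 ± 2.55 CPM. Its rank was 359 and 406. Both values lie above the limit that a count of 0 allows (3 counts), which is 0.844 CPM for replicate 1 and 1.09 for replicate 2. All 3 members reached the detection minimum of 2 CPM in both libraries. Of all 2202 genes, 478 reached it in replicate 1 and 493 in replicate 2. Intervals and limits cover counting error only, since amplified reads are not independent molecules.

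**Figure D3:**
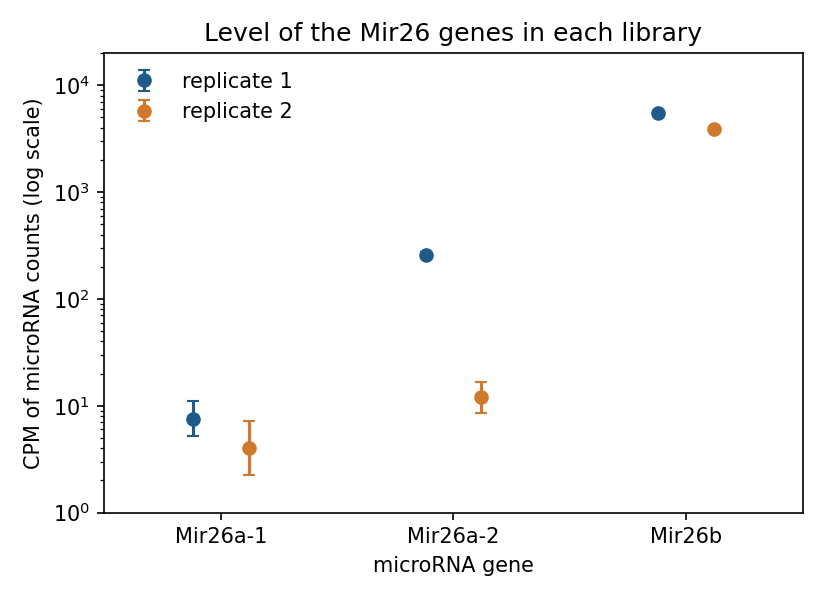
Level of each member in CPM (y axis, log scale) in replicate 1 (blue) and replicate 2 (orange). Bars are 95% Wilson intervals for counting error. The libraries are less far apart for Mir26a-1 and Mir26b than for Mir26a-2, which stands at 257 and 12.0 CPM. The bars of the libraries overlap for Mir26a-1 and do not for Mir26b.

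In both libraries the order of the levels was Mir26b, Mir26a-2, Mir26a-1. The hairpins are 84 to 90 bases long, and per hairpin base Mir26b was 769-fold and 1032-fold higher than Mir26a-1 in replicates 1 and 2. It was 21.3-fold and 321-fold higher per base than Mir26a-2. Neither library of Mir26b overlapped with those of the other members. Mir26a-2 lay above Mir26a-1 in both libraries, 36.2-fold in replicate 1 and 3.21-fold in replicate 2 per base, but the difference of their means was smaller than the SD of Mir26a-2. Without division by length, Mir26b was 727-fold and 975-fold higher than Mir26a-1. These levels are of reads placed at 1 gene. Reads within the 25 bases that the Mir26a copies share may be missing from their counts, so the folds do not compare miR-26b with miR-26a. Together the 3 genes held 0.578% (0.570 to 0.586) of microRNA counts in replicate 1 and 0.390% (0.383 to 0.397) in replicate 2, or 0.484% ± 0.133.

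Ratios between the libraries were computed with TMM scaling (trimmed mean of M-values), as log2 of replicate 1 over replicate 2. They describe 2 animals of 1 group, with no test. Mir26a-2 had a log2 ratio of 4.42 (exact 95% counting interval 3.94 to 4.99), which is 21.4-fold higher in replicate 1 (15.4 to 31.7). Mir26b had a log2 ratio of 0.52 (0.49 to 0.56), or 1.44-fold. Mir26a-1 had a log2 ratio of 0.91, with an interval of -0.11 to 2.11 that spans 0, so that a difference was not detectable at 27 and 11 counts. All 3 ratios were above 0, and for Mir26a-1 the interval was not. That direction was common: among 308 microRNA genes with a summed count of at least 100, ratios stayed above 0 down to rank 171.

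Across the 308 microRNA genes whose counts sum to at least 100 over both libraries, 34 (11.0%) reached 2-fold toward replicate 1 and 49 (15.9%) in either direction. Of the members, Mir26a-2 and Mir26b reach that summed count, and 1 of these, Mir26a-2, was past 2-fold. It ranked 4 of 308 toward replicate 1 and 5 by size in either direction. Mir26b ranked 65 toward replicate 1, and the median log2 ratio of the 308 genes was 0.09. Of 72 genes with a summed count within 2-fold of that of Mir26a-2, itself included, the median size of the log2 ratio was 0.32. Only Mir451a, a microRNA of red cells with 60 and 1356 counts and a log2 ratio of -4.83, was as far from 0 as Mir26a-2 among them. It went the other way and was named after its values were seen.

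**Figure D4:**
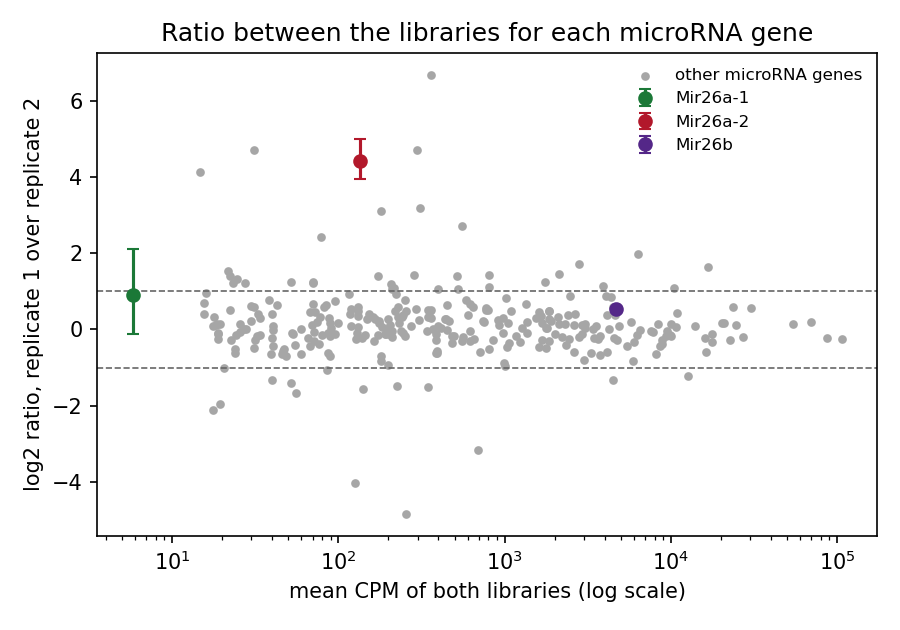
Log2 ratio of replicate 1 over replicate 2 (y axis) against the mean CPM of both libraries (x axis, log scale) for microRNA genes whose counts sum to at least 100 (grey) and for the members (coloured, with 95% counting intervals). Dashed lines mark 2-fold. Mir26a-2 stands at 4.42, Mir26b at 0.52 and Mir26a-1, below that summed count, at 0.91.

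The genes with a larger ratio toward replicate 1 were Mir200b (2529 and 19 counts), Mir429 (2046 and 61) and Mir200a (214 and 6). These are known from epithelial cells and lie beside each other in the genome. Mir141, of the same epithelial family, came next after Mir26a-2 with 100 and 4 counts. By distance in the plane of log2 CPM of both libraries, over the 525 genes with at least 10 counts in sum, the nearest genes to Mir26a-2 were Mir182 (473 and 69 counts, distance 1.42), Mir429 (1.46) and Mir200b (1.67). These 3 lie far from it, for the nearest gene to Mir26b was at 0.10 and to Mir26a-1 at 0.14. The nearest genes to Mir26b were Mir92b (19186 and 10020 counts), Mir676 (18318 and 11090) and Mir1983 (16375 and 9974). Those to Mir26a-1 were Mir1934, Gm23394 and Mir344f, at 24 to 29 counts in replicate 1 and 10 or 11 in replicate 2. Each likeness rests on 2 libraries and on the level as well as the ratio.

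Markers of epithelium, sensory organs and choroid plexus, as sums over each list, were higher in replicate 1, as was Mir26a-2. So were the sums for striated muscle (2.49-fold, from Mir206 alone), oligodendrocytes (1.49-fold), progenitors (1.46-fold), neurons (1.29-fold) and microglia and leukocytes (1.09-fold). Not all members of these lists went that way. By log2 ratio, 4 of 8 neuronal and 2 of 4 microglia and leukocyte markers were higher in replicate 1. The same held for 2 of 3 oligodendrocyte and 3 of 4 progenitor markers. Sums for endothelial and mural cells and for liver were lower in replicate 1, but Mir145a of the mural cells was higher, with 140 and 97.8 CPM. The 7 epithelial markers together had 2475 CPM in replicate 1 and 361 in replicate 2, 6 of 7 were detected, and none was at 0 in both. The 3 markers of sensory organs (Mir183, Mir182 and Mir96) summed to 458 and 63.4 CPM. The 5 of choroid plexus and ciliated cells summed to 5222 and 2793 CPM (1.87-fold). Of these 5, Mir211 was lower in replicate 1, with 3.94 and 5.07 CPM. The summed red cell markers went the other way, with 60.2 CPM in replicate 1 against 550, and the gap was mostly Mir451a, with 16.9 against 491 CPM, while Mir486 had 36.8 and 30.4 CPM. The part of these cells in the Mir26a-2 counts was not tested, and in a bulk sample more cells of a type and more of the RNA per cell cannot be told apart.

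The labelled tissue was checked with 8 neuronal microRNA genes, which summed to 36925 CPM in replicate 1 and 28648 in replicate 2. Of these, 5 were detected at 2 CPM in both libraries. The copies of Mir124a, the classic neuronal microRNA, stood at 0.724 to 3.62 CPM, and like Mir26a they share their mature arm. Progenitor and brain markers summed to 5659 and 3886 CPM, oligodendrocyte markers to 913 and 613, endothelial and mural markers to 16319 and 23814, and microglia and leukocyte markers to 514 and 472. The liver marker Mir122 was at 63.3 and 78.6 CPM. Striated muscle markers summed to 35.2 and 14.1 CPM, and 4 of 5, Mir1a-1, Mir1a-2, Mir133a-1 and Mir133a-2, had no read. The copies of Mir1a share 28 bases and those of Mir133a 31, so reads within these stretches may not have been placed at 1 gene, and the zeros do not show that muscle microRNAs were absent.

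Both Mir26a genes hold the same 5p arm, and the split of their placed reads differed between the libraries. Mir26a-1 had 2.88% (Wilson interval 1.98 to 4.15) of the 939 counts of both copies in replicate 1 and 25% (14.6 to 39.4) of the 44 counts in replicate 2. The ratio of Mir26a-2 to Mir26a-1 was 11.3-fold higher in replicate 1 (exact counting interval 4.61 to 25.8). The same split was computed for every pair of microRNA genes whose symbols differ by a final 1 or 2 and have no further copy. Of 43 such pairs, 20 had a summed count of 20 or more in each copy. For the other 19 the median size of the log2 change in copy ratio was 0.22 and the largest was 1.11, for Mir181a, against 3.51 for Mir26a. Mir26a also had the fewest counts in its lesser copy, with 38, followed by Mir218 with 42. Below the minimum, Mir450, with 10 counts in its lesser copy, changed by 2.85. The change for Mir26a draws on the same Mir26a-2 counts as the log2 ratio of 4.42 and adds no separate evidence.

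The stretch shared by the Mir26a copies was within the range of the other pairs. The longest stretch shared by the copies ranged from 22 to 28 bases over the 20 pairs, with a median of 24, and in 7 of the other 19 pairs it was as long as the 25 bases of Mir26a or longer. In Mir181a, the pair with the next largest change, copy 1 held 96.5% and 98.3% of counts.

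**Figure D5:**
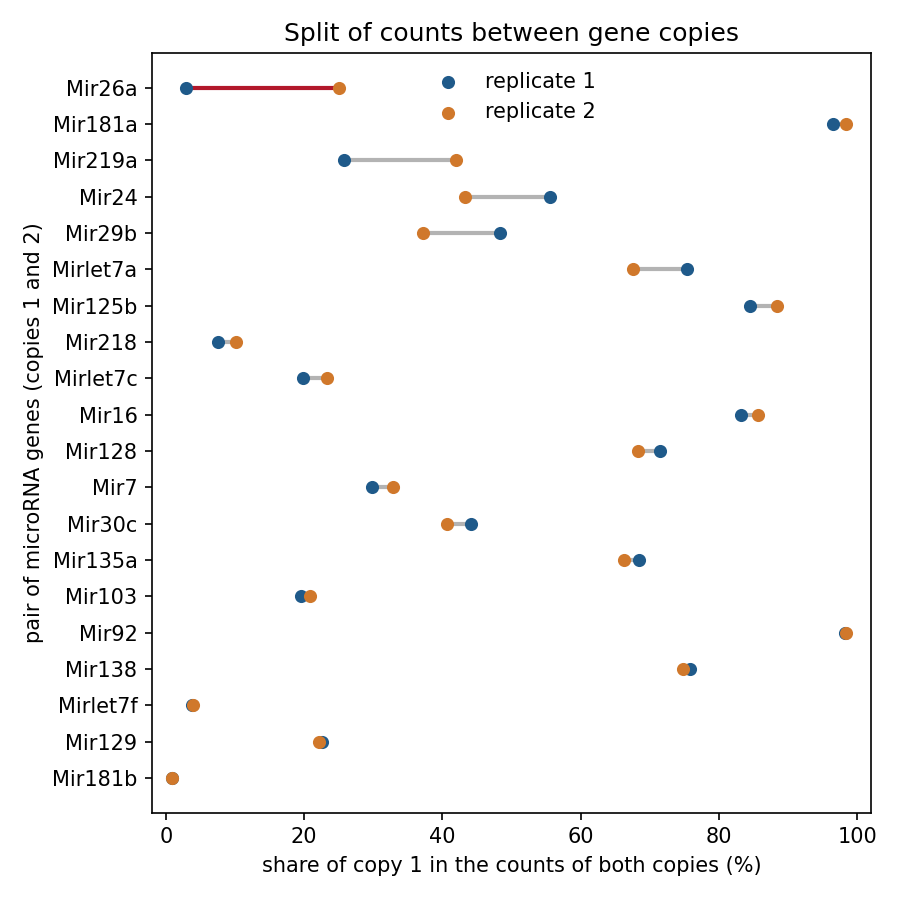
Share of copy 1 in the counts of both copies (x axis, percent) for 20 pairs of microRNA genes, in replicate 1 (blue) and replicate 2 (orange), ordered by the size of the log2 change in copy ratio. Mir26a, at 2.88% and 25%, has the largest change.

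Other small families inside related host genes gave both alike and unlike pictures. Mir103-1, Mir103-2 and Mir107 lie in Pank3, Pank2 and Pank1, genes for enzymes of coenzyme A synthesis. As in the Mir26 family, the member without an identical copy was highest, with Mir107 at 2866 and 4593 CPM. Mir103-1 stood at 6.75 and 19.9 CPM and Mir103-2 at 27.8 and 75.3 CPM, and they share 27 bases. Mir107 shares 24 bases with each of them, whereas Mir26b shares at most 11 with a Mir26a copy. Unlike the Mir26 genes, these 3 were all lower in replicate 1, with log2 ratios of -1.53, -1.41 and -0.66 for Mir103-1, Mir103-2 and Mir107. Mir128-1 in R3hdm1 and Mir128-2 in Arpp21 share 23 bases around an identical 3p arm of 21 bases. Both were abundant, with 14073 and 6719 CPM for Mir128-1 and 5607 and 3127 CPM for Mir128-2, and copy 1 held 71.5% and 68.2% of their counts. The differences between these families were not tested.

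Of 8 neural microRNA genes linked to REST, the partner of the host proteins, 4 were detected in both libraries. Mir132, an activity-dependent microRNA of neurons, led them with 5271 CPM in replicate 1 and 2903 in replicate 2. Its cluster partner Mir212 had 78.8 and 70.3 CPM. Mir9-3 had 182 and 198 CPM and Mir9-1 had 77.9 and 57.2 CPM. The other 4, Mir124a-1, Mir124a-2, Mir124a-3 and Mir9-2, were below 2 CPM in at least 1 library and belong to families with copies of the same mature arm. Mir132 had a log2 ratio of 0.88 between the libraries. The median of the REST-linked genes with at least 10 counts in sum was 0.32. Over the 308 genes, with the higher minimum of 100 counts, it was 0.09. Low counts enter the first median: Mir124a-3, with 9 and 2 counts, had a log2 ratio of 1.58 and Mir124a-1, with 5 and 10, one of -1.28.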

How the data were processed

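The authors deposited 1 table of whole-number read counts per microRNA gene for each library, with no scaling and no pooling, on mm10 and GENCODE M21, as the notes beside the tables state. Aligner, counter, trimming and filters are not given in the sources used here. The tables have no header, and their 3 value columns were read as either strand, annotated strand and opposite strand from their layout and values. All 2202 gene IDs matched annotation M21. Depth was 11686912 reads in replicate 1, with 3555469 (30.4%) on the annotated strand of microRNA genes, and 9938361 in replicate 2, with 2761003 (27.8%) there. The totals that name no gene (unmapped 19.3% and 25.6%, several places 45.8% and 41.0%, outside the genes 4.50% and 5.63%) stayed out of CPM, so 1 CPM is 3.56 and 2.76 reads.

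CPM, Wilson intervals and exact Clopper-Pearson intervals were computed here with Python 3.11.15, pandas 2.3.3 and scipy 1.17.1, and TMM and RLE factors with edgeR 4.0.16, with 0.5 added to each count in log2 ratios. The ratio code was tested on simulated data. Of 525 genes with at least 10 counts in sum, 10 had equal counts in both tables, so neither table is a copy of the other. Sequences are from RefSeq (GRCm38.p6) and GENCODE transcripts. A genome was not used here, so copies outside annotated transcripts and castaneus variants were not examined. Named genes are the members, genes with their seeds, the 3 nearest genes of each, microRNA genes within 10 kb, genes and copy pairs as far apart as Mir26a-2 and Mir26a, the Mir103, Mir107 and Mir128 genes, and the marker and REST lists. Members and lists were chosen with earlier results of these data known. Alternatives were other denominators, strands, scalings, added counts, minimums and windows.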

Additional observations from a re-analysis of the deposited data

How the results depend on the processing

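Of 48 values under alternative settings, 43 stayed within the spread between the libraries, the counting interval or, for counts and shares of genes, 1.5-fold of the reported value, and none changed direction. The log2 ratio of Mir26a-2 was 4.25 to 4.44 with RLE factors, library size, either strand, 5 counts added or none added, and that of Mir26b 0.51 to 0.52. Scaled to all reads instead, which include those mapped to several places, Mir26a-1 stood at 1.71, Mir26b at 1379 and Mir26a-2 at 40.7 against 134, the last within its wide SD of 173, and the family held 0.142% of all reads. With windows of 25 bases the share found in 1 hairpin was 98.5% for Mir26a-1 and 98.3% for Mir26a-2, against 94.2% and 93.7% with 22. At 10 CPM 2 members were detected. With 2 libraries, leaving out either leaves a single value: 12.0 to 257 CPM for Mir26a-2. Such a value always lies within the SD of 2 libraries, so its place among the 43 shows no stability. No pair order with 100 counts in each copy was computed for Mir26a, since Mir26a-1 has 38 in all. No paired analysis was possible because there is only 1 group.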
